A study of Ovis aries with 36 samples.

Results

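The HOXD cluster is one of the clusters of homeobox genes in the sheep genome, and its loci were taken as every assembled locus, annotated or not, whose span lies wholly within a window of chromosome 2 (Oar_v3.1) that runs from 93609 bases before the start of HOXD8 to 66391 bases after it. The window held 13 of the 31136 loci in the deposited tables. The rule took loci by position alone, but HOXD8, around which the window was set, is listed by the study as different between muscles in these same samples. The tests of HOXD8 given here are therefore no independent evidence. RNA-Seq had been made from 9 muscles of each of 4 lambs, which gave 36 samples with 4 biological replicates per muscle. The lambs were unrelated Poll Dorset cross-breds from different flocks, all slaughtered at 14 months of age after weaning onto a soy crop with sorghum grain, and none of them received an experimental treatment. Muscles of the hind limb and rump were Adductor (AD), Rectus femoris (RF), Semitendinosus (ST), Semimembranosus (SM), Gluteus medius (GM) and Cranial gluteobiceps (GB). Psoas major (PM) and Longissimus lumborum (LL) are muscles of the loin, and Supraspinatus (SS), a muscle of the shoulder, was the only forelimb muscle sampled. Each sample was whole tissue from the superficial middle of the muscle belly, so fewer cells of a type and less RNA per cell cannot be told apart.

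HOX genes encode transcription factors with a homeodomain that give cells their position along the head-to-tail axis of the embryo, and those of the HOXD cluster also act in the growing limb. Within a cluster, the order of the genes on the chromosome follows the order in which they are used in time and along the body. Adult muscle and connective tissue keep part of the HOX expression pattern that was set up in the embryo.

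The tables give Ensembl identifiers but no gene symbols. HOXD8 (ENSOARG00000017491) was named because the coordinates that the study lists for it fall within this locus, and no other locus of the window could be named in this way. In RefSeq's table for another sheep assembly, ARS-UI_Ramb_v3.0, HOXD8 lies between HOXD1, HOXD3 and HOXD4 on one side and HOXD9, HOXD10, HOXD11, HOXD12 and HOXD13 on the other, with MTX2 and EVX2 beyond them. That table holds no identifiers of the deposited loci, so these names were not carried over.

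The reads of the window were concentrated around HOXD8. HOXD8 spans bases 132873609 to 132877353 and had 1521 counts over the 36 samples, which is 51.9% of the counts of the 13 loci. Another 6 loci lie on each side of it, and those at lower coordinates held 1159 counts (39.5%), against 253 counts (8.63%) for those at higher coordinates. Exonic lengths were not used here, so these are shares of reads and not an order of expression levels between loci.

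At the lowest coordinates, ENSOARG00000017462 (bases 132820016 to 132821208) had 21 counts in 14 samples, with at most 3 in a sample. It had 0 counts in all 8 samples of SS and RF, and also in 3 of the 4 samples of SM and 3 of the 4 of PM. A count of 0 allows up to 3 counts in a sample, which are 0.435 to 0.686 CPM in the samples of SS and RF. This limit covers counting error only. The next locus (bases 132836522 to 132857578) joins 2 Ensembl genes, ENSOARG00000017472 and ENSOARG00000017483, which the assembly merged, and had 418 counts. ENSOARG00000022645 follows it directly, is 99 bases long and had 0 counts.

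The window has 3 assembled loci without an Ensembl gene, which all lie between there and HOXD8. XLOC_014612 (bases 132857691 to 132859593) had 303 counts. XLOC_014067 and XLOC_014613 share the span from base 132860297 to base 132870909 and had 270 and 147 counts. The span is the same for both and the sources used here do not state whether strand was used in counting, so how reads were divided between them is uncertain.

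Beyond HOXD8, ENSOARG00000017504 (bases 132882816 to 132884329) starts 9207 bases from the HOXD8 start and had 226 counts in 31 samples. ENSOARG00000017514 (bases 132888192 to 132890549) had 22 counts in 14 samples, 8 of them in GM and none in PM. The last 4 loci had almost no reads. ENSOARG00000019633 and ENSOARG00000000107 had 1 count each, ENSOARG00000000124 had 3 and ENSOARG00000000088 had 0, all over 36 samples.

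**Figure D1:**
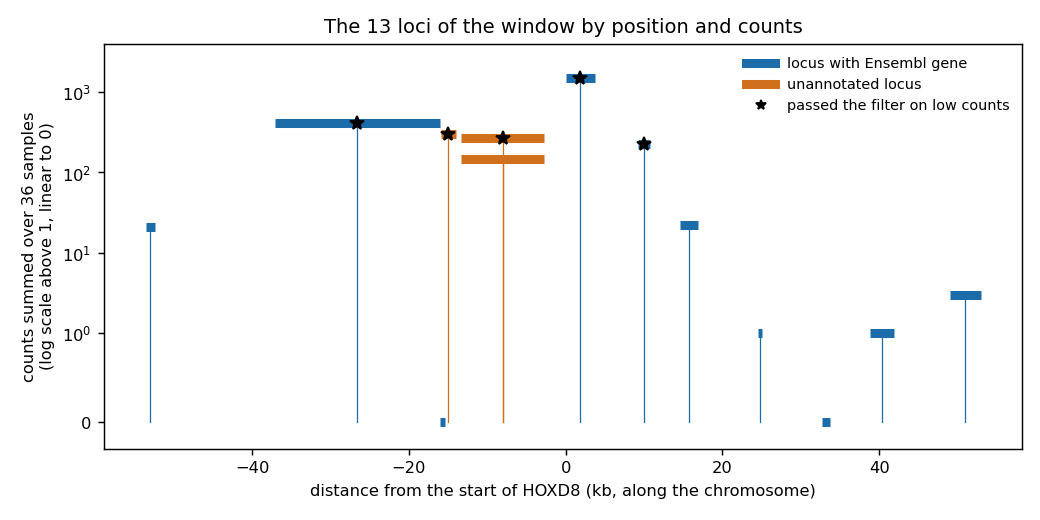
Counts summed over the 36 samples (vertical axis, log scale above 1) for the 13 loci of the window, placed by their distance in kilobases from the start of HOXD8 (horizontal axis). HOXD8 is the tallest with 1521 counts, the 5 loci that passed the filter on low counts lie in its neighbourhood, and the 4 farthest on the right had at most 3 counts.

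Low counts limited what could be seen at most of these loci, and whether they came from depth or from low expression was not tested. Totals ranged from 3699148 to 6427422 counts per sample, and animal 1 had the lowest total in 9 of 9 muscles. The 4 most counted loci of each sample, which lay outside the window, took 65.7% to 78.3% of its counts. With filterByExpr in edgeR, 5 of the 13 loci were kept among 12461 of the whole series: HOXD8, ENSOARG00000017504, the merged locus, XLOC_014612 and XLOC_014067. The other 8 were not tested. Expression is given as CPM, which is the count scaled to the TMM-normalized library size and multiplied by 1000000, with the SD over the 4 animals.

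Expression of HOXD8 was low in SS and RF and high in the other 7 muscles. In SS the counts of animals 1 to 4 were 1, 2, 2 and 8, and expression was 0.229, 0.29, 0.354 and 1.54 CPM. In RF the counts were 4, 8, 18 and 4, and expression was 0.788, 1.16, 2.99 and 0.726 CPM. Both muscles overlap each other, with animal 4 highest in SS and animal 3 highest in RF.

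The other hind limb muscles lay well above them. Expression of HOXD8 in animals 1 to 4 was 8.51, 4.95, 13.1 and 9.01 CPM in SM and 9.03, 9.37, 11.5 and 12.5 CPM in ST. In GB it was 4.07, 3.51, 13.4 and 8.57 CPM, and in GM 9.11, 6.12, 9.42 and 9.36 CPM. Animal 1 and animal 2 gave the lower values in GB, which was the most variable of these muscles. In AD expression was 5.51, 8.56, 9.84 and 8.84 CPM.

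In the loin, expression of HOXD8 was 11.8, 10.7, 19.5 and 14.1 CPM in LL and 4.24, 7.77, 11.3 and 7.99 CPM in PM. LL was the highest of the 9 muscles in 4 of 4 animals. SS and RF were the 2 lowest in 4 of 4 animals, and SS was below RF in 3 of them. The highest value among the 8 samples of SS and RF was 2.99 CPM and the lowest among the other 28 samples was 3.51 CPM, so these sets of samples did not overlap.

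**Figure D2:**
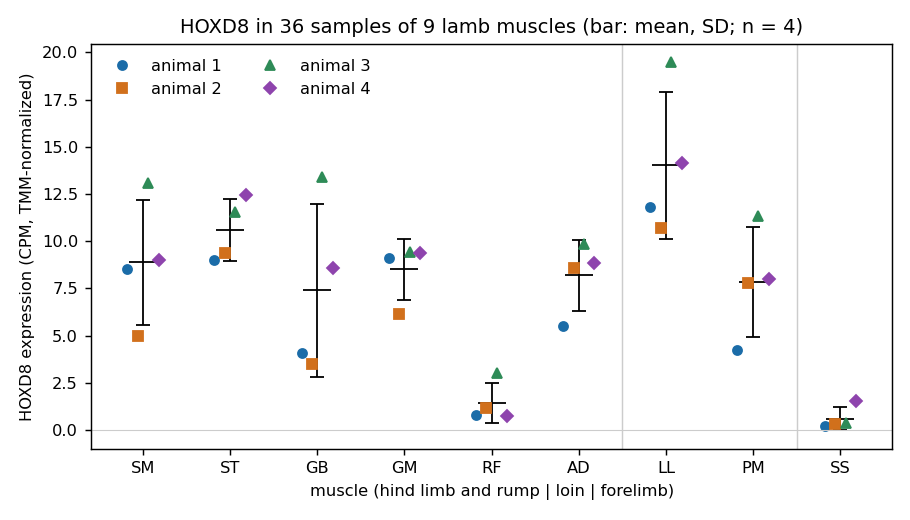
Expression of HOXD8 (vertical axis, CPM) in each of the 36 samples by muscle (horizontal axis), with 1 symbol per animal and bars for the mean and SD of 4 animals. The samples of SS and RF reach 2.99 CPM at most and lie below all samples of the other 7 muscles, which start at 3.51 CPM.

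Ordered by mean, HOXD8 had 0.603 ± 0.627 CPM in SS, 1.42 ± 1.07 in RF, 7.39 ± 4.61 in GB, 7.84 ± 2.91 in PM, 8.19 ± 1.87 in AD, 8.50 ± 1.59 in GM, 8.88 ± 3.32 in SM, 10.6 ± 1.66 in ST and 14.0 ± 3.91 in LL (SD, n = 4). The mean of LL was 23.2 times that of SS. Differences between muscles were tested by the quasi-likelihood method of edgeR, with animal as a block and FDR adjusted over all loci tested. A pair of muscles was called different where the FDR did not exceed 0.01 and the log2FC was larger than 1 in size. No pair of neighbours in the order was called except RF and GB. Between RF and SS, HOXD8 had a log2FC of 1.21 (FDR = 0.202), and 3 of 4 animals had more in RF. This value rested on single animals, since it was 0.50 (FDR = 0.872) without animal 3 and 2.34 (FDR = 0.0132) without animal 4, and the pair was called in neither case. The ratio of RF to SS from the summed counts was 2.46, with a 95% exact interval of 1.27 to 5.09 that covers counting error only.

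In the joint test of all 9 muscles, HOXD8 differed with an FDR of 1.9e-11 and ENSOARG00000017504 with an FDR of 2.4e-05. XLOC_014612 (FDR = 0.0145), the merged locus (FDR = 0.0176) and XLOC_014067 (FDR = 0.0815) did not reach an FDR of 0.01. Thus 2 of the 5 tested loci were called, against 9.73% of all loci tested. These 2 include HOXD8, around which the window was set and which the study had already listed as different in these samples. The share is therefore no independent evidence about the window. Over the alternatives, the FDR of the merged locus ran from 0.00123 without the filter, with 0.00177 by the likelihood ratio test and 0.00554 by DESeq2, to 0.0670 without the block, 0.140 without animal 2 and 0.205 without animal 4. That of XLOC_014612 ran from 0.00137 by the likelihood ratio test, with 0.0275 by DESeq2, to between 0.106 and 0.114 without animal 2, 3 or 4.

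Over the 36 pairs of muscles, HOXD8 was called in 14, which are the 7 pairs of SS and the 7 pairs of RF with each of the other muscles. The pairs that share SS or RF also share its 4 samples, so they are not independent of each other. Of all tests over the 36 pairs and all loci, 0.739% were called, and 21 of the 180 tests of the 5 loci were. HOXD8, around which the window was set, gave 14 of these 21 calls. Every animal had less HOXD8 in SS and in RF than in each of these 7 muscles.

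For SS, the smallest of the 7 differences was with GB, a log2FC of 3.50 (FDR = 4.1e-08) in a comparison that called 0.361% of all loci. SS was lower than PM by a log2FC of -3.68 (FDR = 6.6e-09, 0.835% of loci called) and lower than AD by -3.78 (FDR = 4.4e-09, 0.770% called). GM exceeded SS by a log2FC of 3.82 (FDR = 6.2e-09, 0.522% called). The SM and ST comparisons with SS, which called 3.01% and 2.25% of all loci, had log2FC of 3.83 and 4.15. The largest of the 7 differences was with LL, a log2FC of -4.52 for SS minus LL (FDR = 2.4e-11, 2.40% called).

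For RF, the differences were smaller but of the same direction in 7 of 7 muscles. RF had a log2FC of -2.47 to PM (FDR = 3.6e-06, 0.345% of all loci called), -2.57 to AD (FDR = 1.7e-06, 0.201% called) and -3.31 to LL (FDR = 2.0e-09, 0.714% called). GB exceeded RF by a log2FC of 2.29 (FDR = 3.4e-05, 0.144% called) and GM by 2.61 (FDR = 1.5e-06, 0.353% called). SM exceeded RF by 2.62 (FDR = 1.7e-06, 1.00% called) and ST by 2.94 (FDR = 2.2e-07, 0.225% called). RF is a muscle of the thigh like SM, ST and AD, which were all among the 7 muscles with more HOXD8. Without animal in the model, GB and RF had a log2FC of 2.34 with an FDR of 0.0112, and the call was lost.

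Among the 21 pairs that involve neither SS nor RF, HOXD8 was called in 0 with the quasi-likelihood test, and in 6 it had an unadjusted p under 0.05. DESeq2 called 1 of the 21, as did the quasi-likelihood test without the filter on low counts or at an FDR of 0.05. The smallest FDR of the 21 was 0.0309, between GB and LL (log2FC -1.02 for GB minus LL, with LL higher in 4 of 4 animals). Expression in LL was above that in PM by a log2FC of 0.84 (FDR = 0.132) and above that in AD by 0.74 (FDR = 0.255), each in 4 of 4 animals. GM had a log2FC of -0.70 to LL (FDR = 0.223) and SM one of -0.70 (FDR = 0.105), also in 4 of 4 animals. The 21 log2FC ranged from 0.0081 to 1.02 in size.

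**Figure D3:**
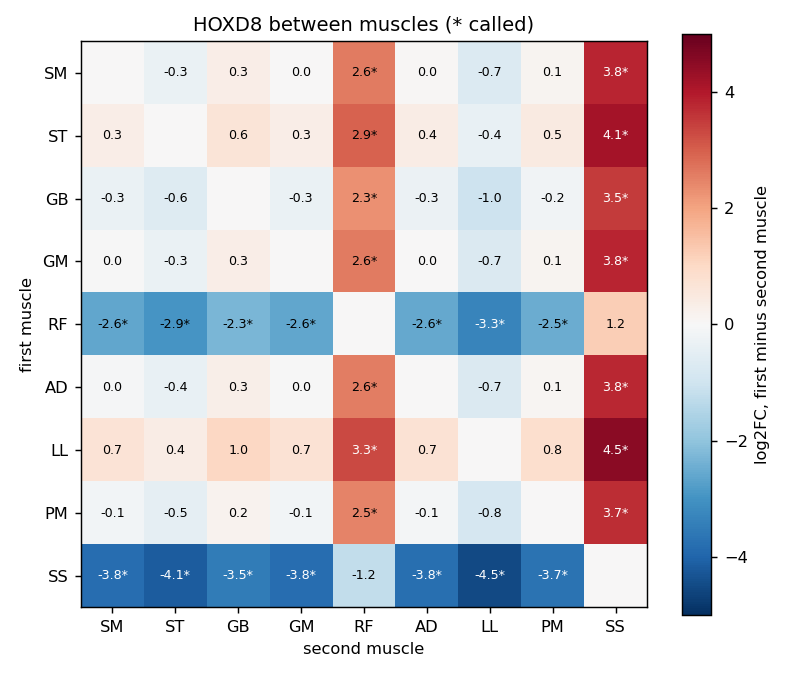
Fitted log2FC of HOXD8 for each pair of muscles, as the muscle of the row (first) minus that of the column (second), with an asterisk on the pairs called. The asterisks fill the rows and columns of SS and RF except where these 2 meet, with sizes from 2.29 to 4.52, and no other pair has one.

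The study's muscles also allow the forelimb muscle to be set against all others. HOXD8 was lower in SS than in the mean of the other 8 muscles by a log2FC of -3.56 (FDR = 4.2e-10), with 4 of 4 animals in that direction and within animals a mean difference of -3.12 ± 0.79 in log2 CPM (SD over 4 animals). In this contrast 0.457% of all loci were called lower in SS. RF is among the 8 muscles, so the contrast does not set SS apart from RF.

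ENSOARG00000017504, the nearest annotated locus beyond HOXD8, had few counts but the same pair of low muscles. In SS its counts in animals 1 to 4 were 1, 1, 0 and 0, and in RF they were 0, 2, 2 and 0. In LL, where it was highest, they were 9, 17, 12 and 17. The counts in the other muscles were between 0 and 16 per sample. SM of animal 1 had 0 and AD of animal 4 had 2, so the samples of SS and RF were not fully separated from the rest.

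Its mean expression was 0.0934 ± 0.113 CPM in SS and 0.156 ± 0.181 CPM in RF, both under the level of 3 counts in a sample. It was 0.889 ± 0.669 in SM, 0.981 ± 0.641 in GB, 1.11 ± 0.705 in AD, 1.41 ± 0.456 in PM, 1.51 ± 0.448 in ST, 1.58 ± 0.521 in GM and 2.35 ± 0.638 in LL (SD, n = 4). SS and RF were the 2 lowest muscles in 3 of 4 animals and LL the highest in 3 of 4.

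ENSOARG00000017504 was called in 7 pairs, 5 with SS and 2 with RF, and HOXD8 was called in 7 of these 7 pairs. The ratio of LL to SS from summed counts of 55 and 2 was 26.0 (95% exact interval 6.87 to 220.2), and that of LL to RF, from 55 and 4, was 13.8 (5.10 to 52.5). Between SS and LL the FDR was 1.0e-05 and between RF and LL 9.4e-05. The other calls were SM, ST, GM and PM with SS and GM with RF, with FDR from 0.000730 to 0.00842. Only 3 of the pairs were called with DESeq2 and only 1 when each fit used the 8 samples of its pair.

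Against the mean of the other 8 muscles, ENSOARG00000017504 was lower in SS with a fitted log2FC of -3.21 (FDR = 0.00129), in 4 of 4 animals. With only 2 counts in SS, the size of that value depends on the small count that edgeR adds. The call was lost with DESeq2 (FDR = 0.0152) and without animal 2 (FDR = 0.0135), animal 3 (FDR = 0.0582) or animal 4 (FDR = 0.0125), while the sign stayed the same. Without these animals in turn, the number of pairs called was 3, 3 and 2.

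The counts of HOXD8 were 5.51 to 8.74 times those of ENSOARG00000017504 in each of the 9 muscles, with 6.5 in SS and 8.5 in RF. The ratio in SS rests on 13 and 2 counts and that in RF on 34 and 4, so both are imprecise. Over the 36 samples, with each animal's mean removed, log2 CPM of both loci had a Pearson r of 0.792. The 36 samples come from 4 animals and share library size and normalization between the loci, so r is a description.

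The 3 tested loci at lower coordinates varied less among muscles. For the merged locus the counts of animals 1 to 4 were 4, 25, 36 and 37 in GM, its highest muscle by mean, and 5, 10, 7 and 2 in RF, its lowest. In SS they were 6, 7, 7 and 6. GM of animal 1 was as low as the samples of SS and RF, so these muscles overlapped. Mean expression of the merged locus ran from 0.992 ± 0.462 CPM in RF and 1.20 ± 0.150 in SS to 3.46 ± 1.59 in GM (SD, n = 4), a range of 3.49 times.

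XLOC_014612 ranged from 0.827 ± 0.314 CPM in RF and 0.900 ± 0.134 in SS to 2.28 ± 0.591 in GM (SD, n = 4), or 2.76 times from lowest to highest. XLOC_014067 ranged from 0.694 ± 0.337 CPM in SS and 0.741 ± 0.409 in RF to 1.73 ± 0.177 in GM and 1.78 ± 0.860 in AD, or 2.56 times. All 3 loci thus had SS and RF as their 2 lowest muscles by mean. Within animals, SS and RF were the 2 lowest in 0 of 4 animals for the merged locus. For XLOC_014612 and XLOC_014067 this held in 1 of 4 animals each. The samples of SS and RF overlapped those of other muscles at all 3 loci, and 0 of the 36 pairs was called at any of them. XLOC_014613, which shares the span of XLOC_014067, did not pass the filter. Its lowest means were 0.436 ± 0.135 CPM in RF and 0.505 ± 0.206 in LL. SS followed with 0.564 ± 0.362, and PM was highest with 0.928 ± 0.620 (SD, n = 4).

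**Figure D4:**
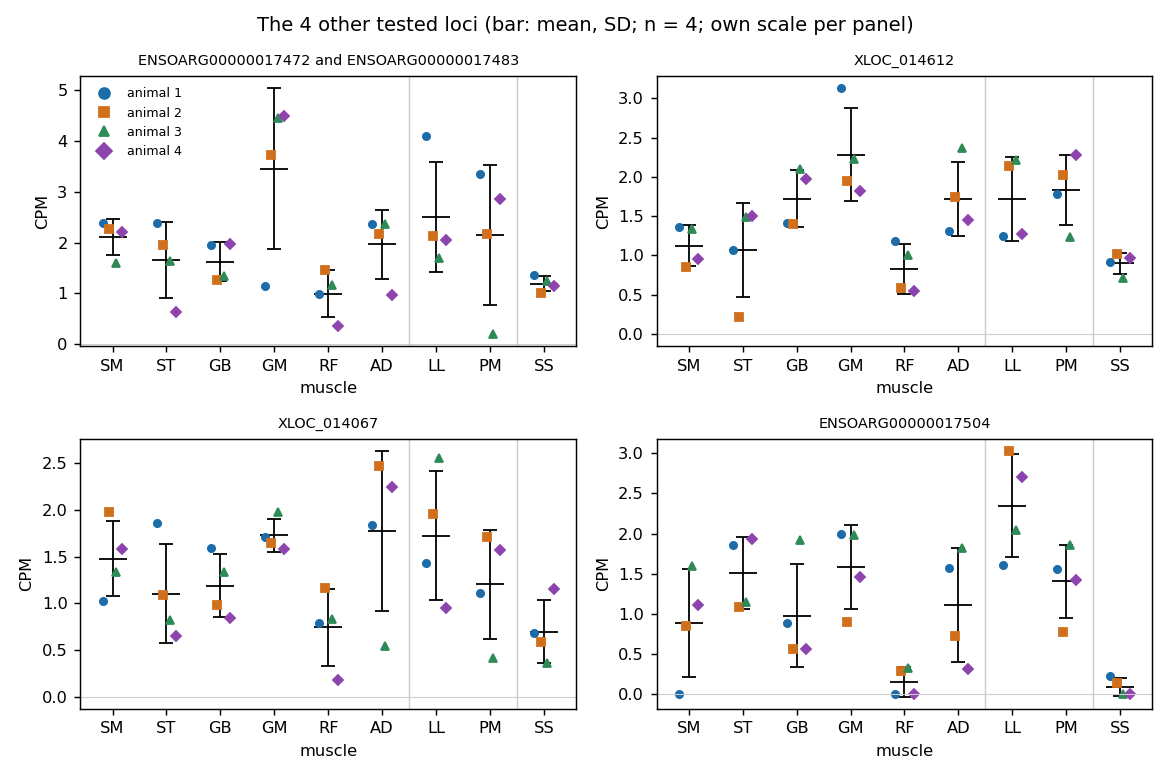
Expression (vertical axis, CPM, own scale in each panel) of the other 4 tested loci in the 36 samples by muscle (horizontal axis), with 1 symbol per animal and bars for the mean and SD of 4 animals. In ENSOARG00000017504 the samples of SS and RF reach 0.333 CPM at most, and SM of animal 1 (0 CPM) and AD of animal 4 (0.321 CPM) lie below that value. In the other 3 panels the samples of SS and RF also overlap those of other muscles.

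In SS against the other 8 muscles, the 5 tested loci had a median log2FC of -0.94, against 0.0082 over all loci. Of the 5, all 5 were below 0, against 48.8% of all loci, but 2 of 5 were called. Both counts include HOXD8, around which the window was set. The 3 that were not called had log2FC of -0.72 (FDR = 0.241) for the merged locus, -0.66 (FDR = 0.192) for XLOC_014612 and -0.94 (FDR = 0.127) for XLOC_014067. Among the untested loci, the 6 with any count had joint FDR of 0.738 or more when no filter was used, and 0 pairs were called for any of them. In that fit, the log2FC of SS against the other 8 muscles was above 0 for ENSOARG00000017514 (0.20, FDR = 0.966). It was -0.30 for XLOC_014613 (FDR = 0.868) and -2.37 for ENSOARG00000017462, and below 0 for the loci with 1 to 3 counts. The 6 loci had from 1 to 147 counts over the 36 samples, and those with 1 to 3 counts could not have been called in any case.

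Loin and hind limb were compared as the mean of LL and PM against the mean of SM, ST, GB, GM, RF and AD. HOXD8 was higher in the loin by a log2FC of 0.72 (FDR = 0.00355), in 4 of 4 animals, which is under the fold threshold. The FDR was 0.105 without animal in the model and 0.0162, 0.0233 and 0.0114 without animals 1, 2 and 3, so it was not below 0.01 in these fits. Its mean was 10.9 CPM in the loin and 7.496 CPM in the hind limb, and the hind limb mean without RF was 8.71 CPM. For ENSOARG00000017504 the log2FC was 1.08 (FDR = 0.0169), also in 4 of 4 animals. The merged locus, XLOC_014612 and XLOC_014067 had log2FC of 0.29, 0.40 and 0.18. None of the 5 loci was called with edgeR's quasi-likelihood test (count 0), 3 had an unadjusted p under 0.05, the likelihood ratio test called 1, and 0.217% of all loci were called. By mean, PM lay among the hind limb muscles and LL above all of them, although the difference of LL and PM was not called.

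Of 39 HOX genes listed, only HOXD8 and HOXC10 could be paired with a locus. The pairing used the coordinates that the study lists for genes it chose as different between muscles. The pair is therefore a choice made on these samples and no independent evidence about HOX genes. Both were called in the joint test. HOXC10 (ENSOARG00000016331), a gene of the HOXC cluster that acts in the lumbar region and hind limb, lies on chromosome 3 from base 132378062 to base 132383225 and had a joint FDR of 2.1e-08.

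HOXC10 and HOXD8 had unlike levels in RF. HOXC10 had 0 counts over the 4 samples of SS and 74 in RF, where its mean was 3.21 ± 1.26 CPM (SD, n = 4). In the other 7 muscles it had 55 to 67 counts and means from 2.09 ± 0.313 CPM in GM to 3.50 ± 0.668 CPM in ST. RF therefore lay within the range of these 7 muscles for HOXC10 and below it for HOXD8. The difference between the genes was not tested.

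Of the other lists, the cofactors of HOX proteins (9 genes), limb identity genes (6), chromatin regulators of HOX clusters (15) and neighbours of the HOXD cluster (8) had 0 genes paired with a locus. The same held for the marker lists of muscle fibre, fibroblast, adipocyte, endothelium, immune, satellite, smooth muscle and cartilage or tendon cells, so the content of these cells was not analysed here. Of 9 slow fibre markers, 7 could be paired (MYOZ2, MYL3, TPM3, TNNT1, TNNC1, TNNI1 and ATP2A2), genes that the study picked from these libraries, and 7 of 7 were called in the joint test.

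The summed level of the 7 slow fibre genes was between 942 and 1479 CPM in SS and between 294 and 786 CPM in RF. SS, with the lowest HOXD8 (0.603 CPM), had the second highest mean of this sum, 1212 CPM. The sum was highest in PM, at 1264 to 1761 CPM, where HOXD8 had 7.84 CPM, and lowest in ST, at 97.7 to 176 CPM, where HOXD8 had 10.6 CPM. The range of RF overlapped those of SM (255 to 699 CPM), LL (183 to 572 CPM) and GM (398 to 880 CPM), whereas HOXD8 in RF was below all samples of these muscles. The part of fibre type in the HOXD8 difference was not tested.

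**Figure D5:**
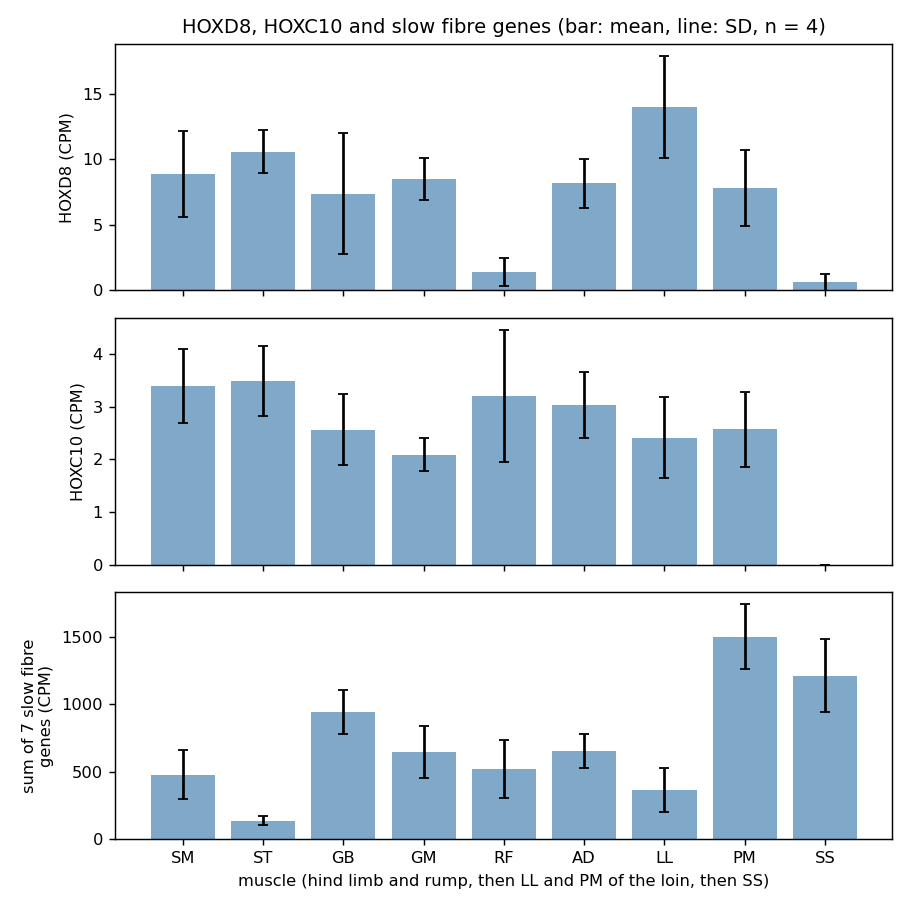
Mean expression (vertical axes, CPM) of HOXD8, HOXC10 and the sum of 7 slow fibre genes by muscle (horizontal axis), with lines for the SD of 4 animals. HOXD8 is low in RF and SS, HOXC10 has 0 counts in SS and 3.21 CPM in RF, and the slow fibre genes are highest in PM and SS.

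The 5 tested loci outside the window listed here had the pattern most like that of HOXD8 by Pearson r of log2 CPM over the 36 samples with each animal's mean removed. A locus on chromosome 12 (bases 344371 to 366834) that joins 2 Ensembl genes and covers the coordinates given for CHI3L1, a secreted chitinase-like protein, had an r of 0.905. Its mean was 4.72 CPM in SS, 20.4 CPM in RF and 40.2 to 72.9 CPM in the other muscles, and it was also the locus most like ENSOARG00000017504 (r = 0.749). SMYD2 (ENSOARG00000009207, chromosome 12, bases 67363488 to 67418074), a lysine methyltransferase, had an r of 0.895, with 12.04 CPM in SS, 16.3 CPM in RF and 21.2 to 31.3 CPM elsewhere.

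PPP1R3D (ENSOARG00000004792, chromosome 13), a subunit that directs protein phosphatase 1 to glycogen, had an r of 0.836. ENSOARG00000009602 on chromosome 21 had an r of 0.818 and ENSOARG00000017789 on chromosome 9 an r of 0.815. SS had the lowest mean and RF the next lowest in all 5, which restates their choice by likeness to HOXD8.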

How the data were processed

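RNA-Seq counts of 36 samples were used. Tophat 2.0.13 was used by the authors for alignment to Oar_v3.1, Cufflinks 2.2.1 for assembly together with the Ensembl annotation and htseq-count for counting, and the deposited counts are whole numbers without normalization. Loci listed under several Ensembl genes were used once, which removed 394 of 31530 entries. Start coordinates in the tables count from 0 and are printed counting from 1. Sequencing used 4 lanes, and which library ran in which lane is not given in the sources used here.

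Muscle and animal number came from the sample labels. The tools were DESeq2 1.42.0, limma 3.58.1 and edgeR 4.0.16 under R 4.3.3. After filterByExpr by muscle, 12461 loci were normalized by the TMM method, which gave normalized library sizes from 2937660 to 8227120, and fitted with muscle and animal as factors on all 36 samples in edgeR, whose quasi-likelihood test was followed by Benjamini-Hochberg adjustment over all loci tested within each comparison. The common biological coefficient of variation was 0.195. Log2 CPM used a prior count of 2. The procedure was tested on simulated data.

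The pairing of samples is by animal, since each lamb gave all 9 muscles. After muscle means were removed, samples that share an animal had a mean r of 0.236 over 144 pairs. For pairs that share neither animal nor muscle it was -0.0777, a negative value that follows largely from the removal of the means. No library was a repeat of another within a muscle, since chi-square divided by its degrees of freedom was 5.12 to 34.7 over the 54 pairs.

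All loci of the window are listed, those past the filter are given by muscle and the others by summed counts, some of them also with values by muscle. Of other loci, the 5 with the highest r to HOXD8, the 1 with the highest r to each other locus called in the joint test, and every listed HOX-related gene called are named. The loci and lists were chosen with earlier results of these data known. Names were taken only where coordinates listed by the study fell within a single locus with an Ensembl identifier. Another 3 loci without an identifier also cover the coordinates of TPM3 or TNNI1, so the reads of these 2 genes may be divided. Alternatives were the likelihood ratio test that the study used, DESeq2, RLE size factors, library sizes without the 4 most counted loci, no filter, a stricter filter (1 CPM in 8 samples), no animal block, an FDR of 0.05, fits to the 8 samples of a pair, and each animal left out. The quantitative PCR values were not analysed here. Some sequences are not reported here.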

Additional observations from a re-analysis of the deposited data

Results flagged for a closer look

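Dixon's test was run on 55 groups of 4 samples, for which chance alone would give about 2.75 outlying samples, and 3 samples stood apart from the other animals of their muscle. In SS, animal 4 had 1.54 CPM of HOXD8, with a gap of 0.904 of the group's range to the nearest other animal. In GM, animal 2 had 6.12 CPM of HOXD8, lower than the other 3 animals, with a gap of 0.906 of the range. In AD, animal 4 had 0.964 CPM of the merged locus of ENSOARG00000017472 and ENSOARG00000017483, also lower than the others, with a gap of 0.864 of the range.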

How the results depend on the processing

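Of 427 values recomputed under the alternatives, 394 kept their direction and their side of the threshold or stayed within 1.5 times the count, and 0 reversed. HOXD8 kept its call in the joint test (FDR from 3.1e-51 to 1.1e-06) and in SS against the other 8 muscles (log2FC from -4.49 to -3.20) under each of 12 alternatives, and was called in 13 to 15 pairs under 13. Without animal in the model, its pair GB and RF was lost (log2FC 2.34, FDR = 0.0112), and the block changed no other call of HOXD8 in SS or RF against the other muscles. Of the 5 tested loci, 4 in place of 2 were called in the joint test by the likelihood ratio test and 4 at an FDR of 0.05. In SS against the other 8 muscles, 1 in place of 2 was called with DESeq2, and 1 to 2 with each animal left out in turn. In loin against hind limb, 1 in place of 0 was called by the likelihood ratio test, 1 without a filter and 1 at an FDR of 0.05. ENSOARG00000017504 was called in 1 to 12 pairs instead of 7. For the rest the cause was not tested, while an FDR of 0.05 raises counts by construction. Low counts limited 8 of the 13 loci, which did not pass the filter on low counts, and ENSOARG00000017504, which had 2 counts in SS.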
